A study of Homo sapiens with 4 samples.

Results

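The RUNX1 locus was described here as the interval chr21:36150001-36450000 on hg19. Libraries came from K562 cells immunoprecipitated for DPF2 or for histone H3 crotonylated at lysine 14 (H3K14cr). The interval was set by position and not by its signal, though with earlier results of these data known. RUNX1 lies on the minus strand, so its distal promoter near position 36421595 has the higher coordinate and its proximal promoter near position 36260987 lies 160608 bp downstream. The interval holds 300 of the 2598309 tiles of 1 kb that had a read in any library: 28 upstream of the distal promoter, 161 between the promoters and 111 downstream of the proximal promoter. ChIP-seq libraries were made from wild-type K562 cells only, 2 with a DPF2 antibody from Abcam and 2 with an H3K14cr antibody from PTM. K562 is an established line from a chronic myeloid leukaemia, which carries the BCR-ABL1 fusion and has erythroid features. All 4 libraries share the cell line, the genotype and formaldehyde fixation, and no treatment was compared.

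RUNX1 encodes the DNA-binding subunit of core binding factor, a transcription factor that is required for blood stem cells to arise and that acts later in megakaryocytes and lymphocytes. The gene is transcribed from a distal promoter, which gives the longest protein isoform, and from a proximal promoter, which lies in a CpG island. In mouse Runx1 a conserved enhancer active in blood stem cells lies in the intron downstream of the distal promoter. DPF2 belongs to the BAF complexes, which remodel chromatin, and its paired PHD fingers bind histone H3 acylated at lysine 14. Crotonylation of lysine 14 is one such acyl mark.

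The RefSeq promoter of RUNX1 is shown because the highest tiles of the locus lay just upstream of the proximal promoter. The highest 100 bp bins near this promoter lay beyond the printed bases, 600 to 700 bp upstream for H3K14cr and 1500 to 1600 bp upstream for DPF2. The printed sequence covers 250 bases before the start, chr21:34888700-34888949 on the minus strand of GRCh38.p14. Its start lies 160603 bp from the 5′ end of the RefSeq gene, close to the 160608 bp between the promoter positions, so it was taken as the proximal promoter. Capitals mark matches on either strand to the CCAAT box, the GC box, a core of ETS factor sites and the octamer core, spelled out below it.
RUNX1 proximal promoter: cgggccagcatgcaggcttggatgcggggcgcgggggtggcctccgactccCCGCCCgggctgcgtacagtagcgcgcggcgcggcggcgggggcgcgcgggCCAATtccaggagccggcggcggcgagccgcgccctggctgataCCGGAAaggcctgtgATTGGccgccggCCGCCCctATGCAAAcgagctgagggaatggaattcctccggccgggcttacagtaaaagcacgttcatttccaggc
Of its bases, 71.2% were G or C, against a median of 58% over 35116 RefSeq promoters of the same table. It held 32 CpG dinucleotides, and 90.5% of those promoters had fewer. CCAAT, the box bound by NF-Y, matched 148 bases upstream of the start on the strand as printed, which is that of the gene. It also matched 89 bases upstream on the opposite strand, and 32.0% of all promoters hold it. GGGCGG, the GC box bound by SP1, matched on the strand opposite to the printed one 199 and 77 bases upstream and is held by 42.6% of promoters. CCGGAA, the ETS core, matched 104 bases upstream (14.5% of promoters), and the octamer core ATGCAAA matched 69 bases upstream (3.94% of promoters). No match overlapped another. Searched on both strands, AGATAA for GATA factors (held by 9.17% of promoters), TGTGGT for RUNX factors (11.0%), CAGCTG as an E-box (14%) and TATAAA as the TATA box (10.7%) had no match in this window.

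DPF2 was sequenced to 7787444 and 13317496 reads, and H3K14cr to 10880366 and 17369133 reads. The pair made with each antibody differed by less than sampling noise and was counted as 1 sample: the chi-square per degree of freedom over tiles of the genome was 0.981 for DPF2 and 0.990 for H3K14cr. Within the locus it was 0.983 for DPF2 and 1.06 for H3K14cr, against 1.14 to 1.22 between libraries of different antibodies. Each antibody was treated as n = 1, and nothing in the labels says that its libraries came from separate cultures. With so few reads per tile, values near 1 can arise with or without separate cultures, so they do not decide this. Intervals below are exact at 95% confidence and cover counting error only, and PCR reads that carry no molecular identifier are not independent molecules.

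Reads of both antibodies were raised along the whole body of RUNX1 and dropped just beyond its ends. Over the 300 tiles the mean level was 2.43-fold the chromosome 21 mean for DPF2 (2.37 to 2.49) and 2.63-fold for H3K14cr (2.58 to 2.69). The DPF2 libraries gave 2.42 and 2.44, and the H3K14cr libraries 2.60 and 2.65. In counts-per-million (CPM) the mean per tile was 0.954 for DPF2 and 1.03 for H3K14cr. Set against 9179 windows of 300 kb across the genome, the locus lay above 98.0% of windows for DPF2 and 97.5% for H3K14cr. Of the 111 windows on chromosome 21, 0 were higher for DPF2 and 2 were higher for H3K14cr. The windows lay on a fixed grid, which cuts RUNX1 itself, and were kept also where part of their tiles had no read. The locus was placed around the gene and had all 300 tiles covered, so these ranks do not compare like with like.

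The rise followed the gene. In the 13 blocks of 20 kb that run from the distal promoter to 260 kb downstream, DPF2 lay between 1.77 and 3.25 times the chromosome mean, with a median of 2.58. H3K14cr lay between 1.91 and 3.98 in the same blocks, with a median of 2.50, and both antibodies were highest in the first 20 kb after the distal promoter. The RefSeq gene is 261502 bp long on GRCh38.p14, and the next block, 260 to 280 kb downstream, had 1.39 for DPF2 and 1.32 for H3K14cr. Levels outside the gene were lower, with a slight overlap at the upstream side. The first 20 kb upstream of the distal promoter had 1.68 in DPF2 and 2.0 in H3K14cr. The 7 blocks from 20 to 160 kb upstream of the distal promoter had levels of 0.844 to 1.87 in DPF2 and 0.876 to 2.05 in H3K14cr, and the 7 blocks from 280 to 420 kb downstream had 0.941 to 1.61 in DPF2 and 0.808 to 1.55 in H3K14cr. The neighbouring protein-coding genes by RefSeq order are CLIC6 past the 3′ end and SETD4 past the 5′ end. No control library was analysed here. A higher signal therefore cannot be told apart from a higher copy number of the locus, its base composition, how much of it reads can be mapped to, or another source of raised background.

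**Figure D1:**
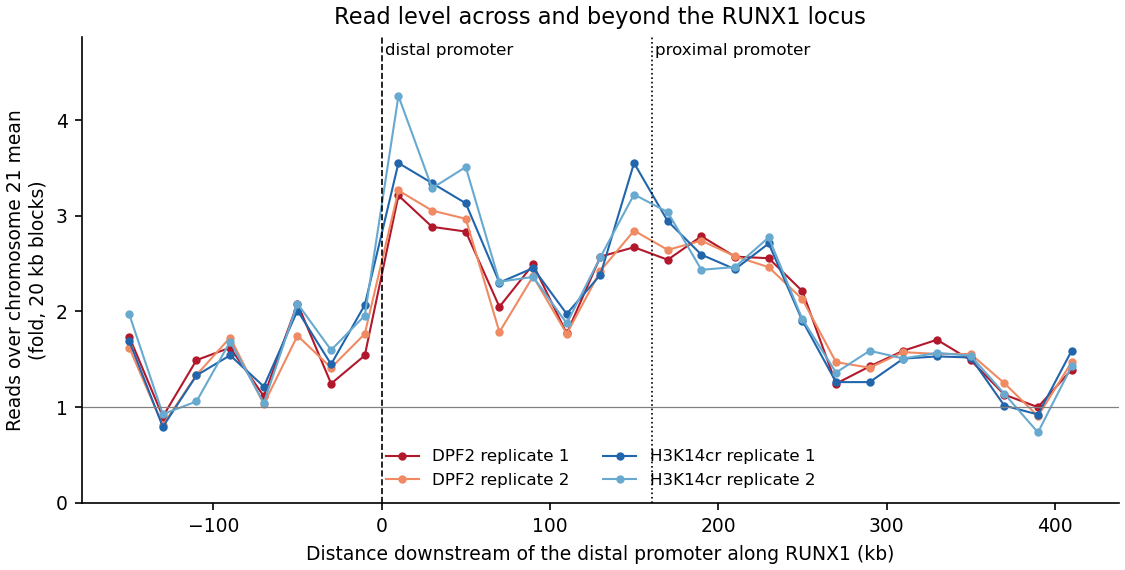
Reads in blocks of 20 kb over the mean of covered tiles of chromosome 21 (fold, vertical axis), against distance downstream of the distal promoter along RUNX1 (kb), 1 line per library. The dashed line marks the distal and the dotted line the proximal promoter, and the grey line marks the chromosome mean. All 4 libraries lie between 1.77 and 4.25 over the 260 kb from the distal promoter and are lower in most blocks beyond it.

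Few single tiles stood out from this raised surround. A tile was called enriched where both libraries of an antibody had at least 3 times the reads of its background, which was the mean of the 20 tiles around it or the chromosome mean, whichever was larger. The adjusted p (one-sided Poisson test, Benjamini-Hochberg over all covered tiles of the genome) had to be no more than 0.001 in each. For DPF2 1 of 300 tiles was called, 0.333%, against 0.221% of all covered tiles of the genome. For H3K14cr 2 of 300 were called, 0.667%, against 0.425%. Singly, the DPF2 libraries had 2 and 1 such tiles, against 0.317% and 0.496% of the genome, and the H3K14cr libraries 3 and 2, against 0.573% and 0.672%. Counts this small and shares this near the background are no result about RUNX1 by themselves. Against the chromosome mean alone, which does not take out the raised surround, 23 tiles were called for DPF2 (7.67%, against 1.11% of the genome) and 52 for H3K14cr (17.3%, against 2.12%).

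All but 1 of the called tiles lay directly upstream of the proximal promoter. The DPF2 call was the second tile upstream, chr21:36262001-36263000, at 1.51 kb from the promoter position. It had 23 and 54 reads in the DPF2 libraries, and 51 and 67 reads in the H3K14cr libraries. Its fold over the local mean was 3.11 and 3.76 for DPF2, with adjusted p of 0.000986 and 1.19e-12, so the first library passed the threshold narrowly. For H3K14cr the folds were 3.34 and 2.77, and the second library kept the tile from being called. It ranked first of the 300 tiles for DPF2 and second for H3K14cr by CPM. Its level exceeded 99.9% of covered tiles for DPF2 and 99.8% for H3K14cr.

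The H3K14cr call was the tile between that one and the promoter, chr21:36261001-36262000, at 0.513 kb. It had 26 and 30 reads in the DPF2 libraries, and 61 and 72 reads in the H3K14cr libraries. The folds over the local mean were 3.71 and 1.92 for DPF2, and 4.15 and 3.03 for H3K14cr, whose adjusted p were 2.31e-16 and 4.25e-13. It was the highest tile of the locus for H3K14cr and the third for DPF2. The pair of tiles thus held the highest level of each antibody in the locus, in a different order: DPF2 was higher in the farther tile and H3K14cr in the nearer one, in reads summed over libraries (77 and 56 for DPF2, 118 and 133 for H3K14cr, farther tile first). In H3K14cr replicate 2 the tiles differed by 5 reads, and in DPF2 replicate 1 the nearer tile was the higher one.

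The tile that holds the proximal promoter position, chr21:36260001-36261000, was lower than both and was not called. It had 18 and 28 reads in the DPF2 libraries, and 30 and 46 reads in the H3K14cr libraries. Summed, this was 2.0-fold over the local mean for DPF2 (1.47 to 2.67) and 1.87-fold for H3K14cr (1.47 to 2.34). The promoter position lies 13 bp from the edge of this tile, so a window centred on the position gives a different value. Centred windows of 1 kb gave 3.0-fold for DPF2 (2.33 to 3.81) and 2.61-fold for H3K14cr (2.14 to 3.16).

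Signal at the proximal promoter leaned upstream for H3K14cr, and for DPF2 within the wider flank. The difference in lean between the antibodies was not tested. Within 1 kb of the position, 54.9% of DPF2 reads (44.7 to 64.8) and 63.6% of H3K14cr reads (56.7 to 70.2) lay upstream, and within 2 kb 61.0% (54.2 to 67.5) and 63.4% (58.4 to 68.1). The DPF2 interval at 1 kb includes an even split. The highest bin of 100 bp lay 1500 to 1600 bp upstream for DPF2, with 13 reads, and 600 to 700 bp upstream for H3K14cr, with 24 reads. In the 500 bp step from 500 to 1000 bp upstream, the DPF2 libraries had 13 and 11 reads and the H3K14cr libraries 36 and 41. The ratio of CPM there, DPF2 over H3K14cr, was 0.417 (0.252 to 0.667), the lowest of the steps within 3 kb of this promoter. In the adjoining steps it was 0.765 (0.479 to 1.2) from 0 to 500 bp upstream and 1.00 (0.656 to 1.52) from 1000 to 1500 bp upstream. These steps, and the choice of the lowest one, were picked after their values were seen.

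The distal promoter tile, chr21:36421001-36422000, had 21 and 33 reads in the DPF2 libraries, and 30 and 55 reads in the H3K14cr libraries. Its fold over the local mean was 2.55 and 2.27 for DPF2, and 2.0 and 2.13 for H3K14cr. Summed, this was 2.37-fold (1.78 to 3.09) in DPF2 and 2.08-fold (1.66 to 2.57) in H3K14cr, below the threshold of 3, so the tile was not called. Its level nevertheless exceeded 99.6% of covered tiles for DPF2 and 99.5% for H3K14cr, and its surround was raised too. The next tile downstream, chr21:36420001-36421000, had 13 and 37 reads for DPF2 and 37 and 67 for H3K14cr. It was the higher of the pair for H3K14cr in both libraries, and its ratio of DPF2 to H3K14cr was 0.644 (0.450 to 0.910).

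Signal within 2 kb of the distal promoter leaned downstream, into the gene, in both antibodies. Within 1 kb of the position 30.5% of DPF2 reads (20.8 to 41.6) and 27.7% of H3K14cr reads (20.4 to 36.0) lay upstream. The libraries gave 29.6% and 30.9% for DPF2, and 28.6% and 27.4% for H3K14cr. For H3K14cr this is the opposite side, along the gene, from the lean at the proximal promoter. Widening the flank to 2 kb put 35.2% of DPF2 reads upstream, with an interval of 27.9 to 43.0. The H3K14cr share became 34.5%, its interval running from 29.2 to 40.2. The surround stepped the same way. Over the chromosome mean, DPF2 rose from 1.68 in the 20 kb upstream to 3.25 in the 20 kb downstream. H3K14cr climbed there from 2.0 up to 3.98. Whether the lean exceeds this step was not tested. No distinct summit was seen here for DPF2: its highest bin of 100 bp, 2000 to 2100 bp upstream, held 10 reads. The highest H3K14cr bin lay 1600 to 1700 bp downstream and held 18 reads. Just beyond these flanks, the 500 bp step that begins 2000 bp upstream had 1.56 CPM for DPF2 and 1.88 for H3K14cr. In the first 500 bp downstream these were 1.42 and 1.70. Tile chr21:36423001-36424000, 1.905 kb upstream, was 2.07-fold over its surround for DPF2 (1.52 to 2.76) and 1.87-fold for H3K14cr (1.46 to 2.35).

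**Figure D2:**
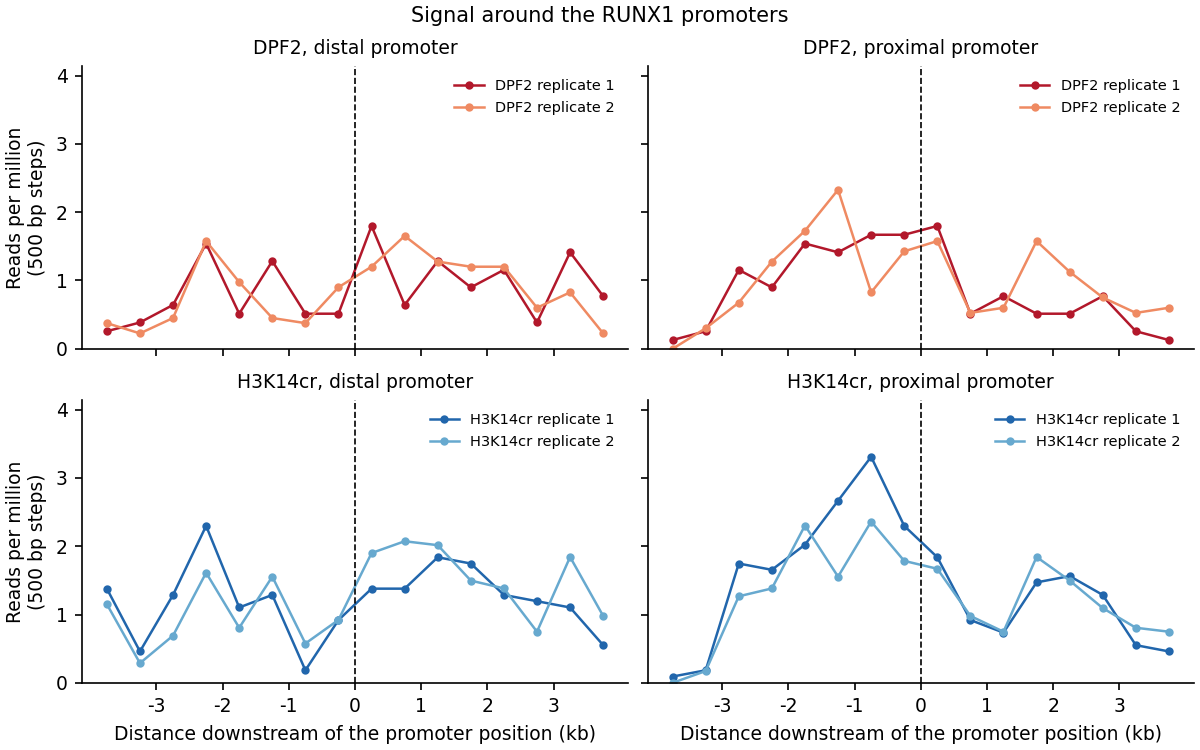
CPM in steps of 500 bp (vertical axis) against distance downstream of each promoter position (kb, negative upstream), with DPF2 in the upper and H3K14cr in the lower panels, 1 line per library. Around the proximal promoter the H3K14cr libraries peak within 2 kb upstream of the position, while around the distal promoter both antibodies are higher just downstream of it than just upstream.

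Which promoter had more signal depended on the window. By tile, the distal promoter had 1.17 times the reads of the proximal promoter for DPF2 (0.777 to 1.78) and 1.12 times for H3K14cr (0.811 to 1.54), and neither interval excludes equality. In 1 kb windows centred on the positions the ratio was 0.687 for DPF2 (0.461 to 1.01) and 0.705 for H3K14cr (0.516 to 0.958). In 2 kb windows it was 0.804 for DPF2 (0.594 to 1.09) and 0.656 for H3K14cr (0.525 to 0.817). More H3K14cr at the proximal promoter was thus seen in both centred windows and not by tile, and for DPF2 every interval includes 1.

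Among 4 tiles between 21 and 25 kb downstream of the distal promoter, 1 was high in both antibodies. Tile chr21:36399001-36400000, at 22.1 kb downstream, lies in this stretch, which was taken for the enhancer known from mouse Runx1, whose human position was not mapped here. It had 23 and 42 reads in the DPF2 libraries, and 37 and 54 reads in the H3K14cr libraries. Its fold was 2.91 and 2.79 for DPF2, and 2.67 and 2.30 for H3K14cr, so all 4 libraries were high and none reached the threshold of 3. By CPM it was the second tile of the locus for DPF2 and the fourth for H3K14cr. The other 3 tiles of this stretch were lower, at 0.462 to 1.56 times the local mean for DPF2 and 0.764 to 1.66 times for H3K14cr. With 500 bp tiles, or with a surround of 100 kb, a DPF2 call fell at this place and the call upstream of the proximal promoter was lost.

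The remaining H3K14cr call, chr21:36282001-36283000, lay 139 kb downstream of the distal promoter, in the stretch between the promoters. It had 15 and 28 reads in the DPF2 libraries, and 34 and 51 reads in the H3K14cr libraries. The folds were 1.89 and 2.22 for DPF2, and 3.16 and 3.04 for H3K14cr, close to the threshold in both. Among the other tiles named by fold, chr21:36217001-36218000, 204 kb downstream of the distal promoter, had 20 and 26 reads for DPF2 and 14 and 28 for H3K14cr. It was 2.19-fold over its surround for DPF2 and 1.51-fold for H3K14cr. Tile chr21:36296001-36297000, 125 kb downstream, went the other way, with 5 and 10 reads for DPF2 and 16 and 30 for H3K14cr. The rest of the named tiles outside the promoter neighbourhoods held few reads. In chr21:36320001-36321000 the fold was 0.645 and 1.86 for DPF2, and 2.40 and 2.08 for H3K14cr. In chr21:36434001-36435000 it was 1.97 and 2.52 for DPF2, and 0.611 and 1.54 for H3K14cr. Tile chr21:36318001-36319000 had 2.52 and 2.02 for DPF2, and 1.24 and 2.38 for H3K14cr. In chr21:36306001-36307000 the libraries were closer, with 1.57 and 1.78 for DPF2 and 2.64 and 2.07 for H3K14cr. In the first 3 of these, leaving out 1 library moves a fold by over 1.5 times.

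**Figure D3:**
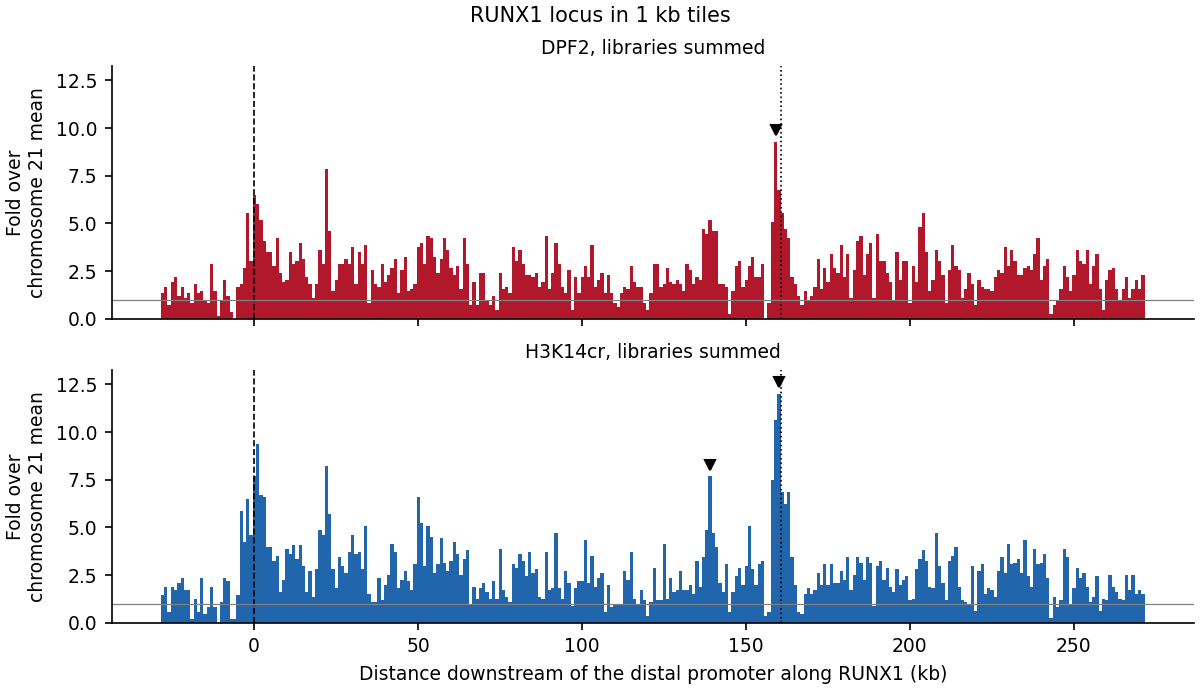
Summed reads of each antibody in 1 kb tiles over the mean of covered tiles of chromosome 21 (fold, vertical axis), against distance downstream of the distal promoter along RUNX1 (kb), with DPF2 above and H3K14cr below. Dashed and dotted lines mark the distal and proximal promoters, the grey line the chromosome mean and black triangles the called tiles. The highest tiles of both antibodies lie directly upstream of the proximal promoter, with further high tiles at the distal promoter and 22.1 kb downstream of it.

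Across the 300 tiles the reads of the antibodies varied together. Pearson's r of reads per tile was 0.676 to 0.781 between libraries of different antibodies, 0.690 between the DPF2 libraries and 0.834 between the H3K14cr libraries. These values describe tiles that share a chromosome region, its base composition and its level, and libraries of unequal depth.

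In reads summed over sections of the gene, the ratio of the antibodies was lower before the proximal promoter than after it. Between the promoters the ratio of DPF2 to H3K14cr, in CPM, was 0.884 (0.846 to 0.923), and downstream of the proximal promoter it was 1.01 (0.957 to 1.07). Over chromosome 21 it was 1.00 (0.997 to 1.01). Every pairing of a DPF2 with an H3K14cr library gave 0.876 to 0.895 between the promoters and 1.00 to 1.02 downstream. The ratio between the promoters was 0.873 times that downstream (0.814 to 0.937, exact conditional interval of the odds ratio). Without the 11 tiles around the promoters or called, it was 0.874 (0.812 to 0.941), as large as with them. This contrast was not planned before the data were seen. Its interval counts reads and leaves out the spread between blocks. The 20 kb blocks did not split cleanly by section: the 8 between the promoters had ratios of 0.816 to 1.01, with a median of 0.888, and the 5 downstream had 0.870 to 1.13, with a median of 1.05. By library totals the interval lay below 1 in 4 of the 8 and in 1 of the 5. The share of such blocks over the genome was not counted, so these counts are no result about RUNX1 by themselves. Upstream of the distal promoter the ratio was 0.846 (0.740 to 0.966) over 28 tiles.

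The comparison of sections does not depend on how libraries are scaled, but the side of 1 on which a ratio falls does. With median-of-ratios factors in place of library totals, which move every ratio by 0.16 on the log2 scale, the ratio was 0.985 between the promoters and 1.13 downstream of the proximal promoter, and 1.12 over chromosome 21. Over the whole locus it was 0.924 (0.895 to 0.955) by library totals and 1.03 by those factors. Among the same 300 kb windows, placed without regard to genes, the median ratio by library totals was 1.06, and 14.6% of windows had a lower ratio than RUNX1.

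In the promoter tiles the interval of the ratio includes 1 at this depth, and in a wider window at the proximal promoter it does not. The ratio was 0.850 in the distal promoter tile (0.593 to 1.21) and 0.810 in the proximal promoter tile (0.549 to 1.18). Windows of 1 kb centred on the positions gave 0.832 (0.563 to 1.22) at the distal and 0.854 (0.619 to 1.17) at the proximal promoter. Windows of 2 kb gave 0.801 (0.602 to 1.06) at the distal promoter and 0.653 (0.510 to 0.832) at the proximal promoter. With median-of-ratios factors the 2 kb window at the proximal promoter had 0.728 (0.569 to 0.927).

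Single tiles of the locus had a ratio interval on one side of 1 no more often than tiles of the genome. Of the 177 tiles averaging 10 or more reads, 13 lay below 1 (7.34%, against 8.52% of 255612 such tiles) and 1 lay above it (0.565%, against 1.97%). With median-of-ratios factors 4 lay below and 4 above, 2.26% each, against 4.41% and 4.08% of the genome. The first tile upstream of the proximal promoter had 0.564 (0.405 to 0.776), and 0.628 (0.451 to 0.865) with those factors. Tile chr21:36258001-36259000, the second tile downstream of the proximal promoter, had 0.616 (0.401 to 0.932). Those factors brought its interval to include 1, and likewise that of the first tile downstream of the distal promoter. The tile 22.1 kb downstream of the distal promoter had 0.956 (0.685 to 1.33). Ratios of tiles named for a high fold lean toward the antibody they were named for and are given as a description: 0.436 (0.226 to 0.796) at chr21:36296001-36297000 and 0.677 (0.458 to 0.988) at chr21:36282001-36283000, both named for H3K14cr. The interval at chr21:36282001-36283000 includes 1 with median-of-ratios factors. Tile chr21:36217001-36218000, named for its fold in DPF2, stood at 1.47 (0.944 to 2.28), an interval that includes 1. With median-of-ratios factors it stood at 1.63 (1.05 to 2.55).

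**Figure D4:**
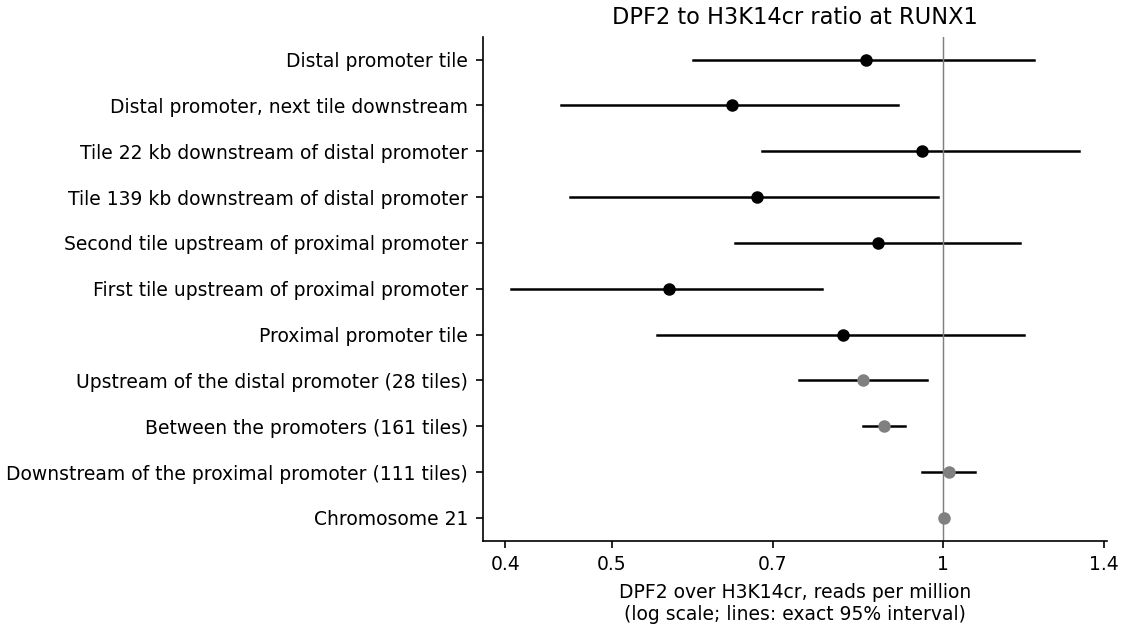
Ratio of DPF2 to H3K14cr in CPM (log axis) with exact 95% intervals, for 7 single tiles of RUNX1 (black points), 3 sections of the locus and chromosome 21 (grey points). The vertical line marks equality. With library totals, the interval lies below 1 for the first tile upstream of the proximal promoter and the next tile downstream of the distal promoter. It also does for the tile 139 kb downstream, which was named for its H3K14cr fold. The intervals of the sections between the promoters and upstream of the distal promoter lie below 1 too. That of the section downstream of the proximal promoter includes 1.

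A test of each tile between antibodies gave a count at the background. limma with trend, on log2(CPM + 0.5), was fitted over 255612 tiles of the genome with a mean of at least 10 reads, of which 177 lay in the locus. This scale understates the change of low tiles, and the p-values measure the spread between libraries of an antibody, which may be technical. In RUNX1 0 of 177 tiles were higher in DPF2, against 0.202% of all tiles tested, and 2 were higher in H3K14cr, 1.13%, against 1.19%. At an unadjusted p under 0.05 there were 19 tiles in the locus, against 12.4% of all tiles tested. edgeR's quasi-likelihood test also called 0 higher in DPF2, against 0.226% of all tiles, and 2 higher in H3K14cr, against 1.34%. The median log2 difference, DPF2 minus H3K14cr, was -0.11 in the locus and -0.11 over all tiles tested, and 0.00 over all tiles with median-of-ratios factors. By library totals the median was -0.14 over the 104 tiles tested between the promoters and 0.01 over the 66 downstream of the proximal promoter.

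The tiles called in this test were both higher in H3K14cr. Tile chr21:36425001-36426000, 3.91 kb upstream of the distal promoter, had 5 and 10 reads in the DPF2 libraries, and 22 and 43 reads in the H3K14cr libraries. The log2 difference was -1.20 (SE 0.256), with a limma adjusted p of 0.00267, and no library of one antibody overlapped those of the other in CPM. Neither antibody was called enriched there, with DPF2 at 0.665-fold and H3K14cr at 1.73-fold of the surround, and the tile was singled out after its values were seen. The other was the first tile upstream of the proximal promoter, with a log2 difference of -0.71 (SE 0.203) and a limma adjusted p of 0.0488. That call was lost with median-of-ratios factors (limma adjusted p = 0.245), with a filter of 5 reads (0.0705), and without DPF2 replicate 2 (0.227). Without H3K14cr replicate 1 or replicate 2, neither tile was called: the adjusted p was 0.284 and 0.218 for the first, and 0.972 and 0.172 for the second.

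Among tiles called for neither antibody, as the promoter tiles are, those most like them elsewhere in the genome were found by Euclidean distance over the log2 fold in the 4 libraries. For the distal promoter tile they were chr19:50215001-50216000, chr16:53839001-53840000 and chr1:26633001-26634000, at distances of 0.0562 to 0.0735. For the proximal promoter tile they were chr12:94016001-94017000, chr17:48286001-48287000 and chr3:11675001-11676000, at 0.0523 to 0.0588.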

How the data were processed

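ChIP-seq signal of 2 DPF2 and 2 H3K14cr libraries from K562 was used, grouped and numbered by title. The deposited signal files hold 100 bp bins scaled by the authors to 10000000 reads and rounded to 2 decimals. Divided by the worth of 1 read, whole numbers of reads resulted, at a tolerance of 0.0051, with 2 and 0 exceptions among the listed values in DPF2 replicates 1 and 2, and 0 and 25 in H3K14cr replicates 1 and 2. Bowtie2, hg19 and mm9 are named, per the submitters' processing notes; coordinates were read as hg19. For duplicates, mapping filters and the Bowtie2 version, the answer is not given in the sources used here. No control library was analysed here.

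Bins were summed in 1 kb tiles on 24 chromosomes by their midpoint. Fold was taken over the mean of 20 surrounding tiles, 10 on each side. The Poisson test was applied to these reads. Intervals of folds are exact Poisson intervals that treat the surround as known, and those of ratios are exact binomial intervals. Differences between antibodies were tested with limma. Scripts were tested on simulated data. Tiles named were those of each promoter and 2 on each side, those 21 to 25 kb downstream of the distal promoter, all called tiles, and for each antibody the 5 with the highest fold in the lower library. The locus, lists and rules were chosen with earlier results of these data known. Alternatives covered tile size and grid, surround, thresholds, windows, scaling, pseudocount, filter, test, the replicate block and each library left out. Promoter sequence came from RefSeq (GRCh38.p14), in which 1 entry matched RUNX1. Tools were limma 3.58.1 and edgeR 4.0.16 in R 4.3.3, and scipy 1.17.1, numpy 2.4.6, pandas 2.3.3 and matplotlib 3.10.9 in Python 3.11.15.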

Additional observations from a re-analysis of the deposited data

How the results depend on the processing

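No called difference between the antibodies reversed its direction under the alternatives run, but the distal to proximal ratio moved from above 1 by tile to below 1 in centred windows. Counts of called tiles moved most, and are given for DPF2 first: 1 and 1 with 500 bp tiles, 0 and 0 with 2 kb tiles, with the grid moved by 500 bp, with the tile included in its surround or with a fold of at least 5, and 23 and 52 against the chromosome mean alone. With 1 library per antibody left out, DPF2 had 1 to 2 called tiles (2 without replicate 2) and H3K14cr 2 to 3. The folds at the promoters rest on the surround. At the distal promoter DPF2 was 1.77 in 2 kb windows and 6.51 over the chromosome mean, and H3K14cr 3.03 over 100 kb and 7.67 over the chromosome mean. At the proximal promoter DPF2 was 3.0 in a centred 1 kb window and 5.55 over the chromosome mean, and H3K14cr was 2.61 and 2.85 in centred windows of 1 and 2 kb, 2.58 over 100 kb and 6.86 over the chromosome mean. The distal to proximal ratio was 0.687 for DPF2 in centred 1 kb windows, and 0.705 and 0.656 for H3K14cr in 1 and 2 kb windows. Over the chromosome's median tile, the locus stood at 3.36 for DPF2 and 3.65 for H3K14cr (the cause of these moves was not tested).

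Tiles higher in H3K14cr by limma numbered 1 with median-of-ratios factors, 1 with a mean of at least 5 reads, 5 with at least 20, 1 among called tiles only, and 0 to 4 with each library left out (4 without DPF2 replicate 2, 0 without either H3K14cr library, each lone library being assumed to vary like the others). In DPF2 the number higher was 0 in all of these. With the replicate number as a block it was 2 for H3K14cr and 0 for DPF2. Deviations of same-numbered libraries had r = 0.00147 over 255612 tiles (2 pairs). This cannot decide whether the numbers mark a pairing. Replicate spread was already at counting noise, where a small r can arise with or without one. Between the promoters over downstream, the ratio kept to 0.870 to 0.879 with each library left out. That contrast, this alternative and the removal of promoter and called tiles were all chosen after seeing the data. Depth limits single tiles, which held a median of 7 to 12 reads in DPF2 and 9 to 16 in H3K14cr, and folds below 3 were left uncalled by the threshold.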

Other observations

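Few tiles of the locus were nearly empty. In all, 7 of the 300 tiles held at most 8 reads over the 4 libraries, 2.33%, against 33.6% of covered tiles of the genome, and 3 of them lay upstream of the distal promoter. Tile chr21:36265001-36266000, 4.51 kb upstream of the proximal promoter, had 0 and 0 reads in the DPF2 libraries, and 2 and 2 reads in the H3K14cr libraries. Upstream of the distal promoter, chr21:36427001-36428000 had 0 and 0 reads for DPF2 and 0 and 2 for H3K14cr, and chr21:36432001-36433000 had 1 and 0 for DPF2 and 0 and 0 for H3K14cr. How much of each tile reads can be mapped to was not analysed here.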
